A study of Caenorhabditis elegans with 36 samples.

Results

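C-type lectin and lysozyme genes were followed in wild-type and mut-16 mutant Caenorhabditis elegans raised at 20°C or 25°C, at the level of mRNA and of the small RNAs that match the same genes. The members were taken by name alone: every gene whose WBcel235 name begins with clec-, lys- or ilys- and whose sequence name has a row in the count files, which gave 277 of 45904 gene names. Of these, 237 are protein-coding C-type lectin genes, 24 are C-type lectin pseudogenes, 10 are lys genes and 6 are ilys genes. They are spread unevenly over the genome, with 99 on chromosome V, 67 on IV, 52 on II, 37 on I, 18 on III and 4 on X. Many stand side by side: 95 members form 15 groups of at least 4 members with no more than 10000 bases between neighbors.

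Lysozymes cut the peptidoglycan of bacterial cell walls. The lys genes of nematodes encode enzymes related to those of amoebae, and the ilys genes encode the invertebrate type. C-type lectin-like proteins carry a fold that binds sugars in some of its members, are often secreted, and form one of the largest gene families of nematodes. Several genes of both families are made in the intestine and change in level when worms meet pathogenic bacteria, and they are widely used as readouts of innate immunity. MUT-16 is the scaffold protein of Mutator foci, the germline bodies in which secondary small RNAs of the 22G class are amplified from target mRNAs.

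Wild-type animals were strain N2, and mutants were strain NL1810, which carries mut-16(pk710). Synchronized L1 larvae of each genotype were grown on enriched peptone plates at 20°C or 25°C and collected as whole Day 1 adults, after about 68 hours at 20°C and about 48 hours at 25°C, so temperature and hours of growth cannot be told apart. Each of the 4 genotype and temperature groups had 3 biological replicates in each assay, 24 libraries in all, and each genotype was represented by 1 strain. In RNA from whole animals, fewer cells of a type and less RNA per cell cannot be told apart. The comparisons ask how these genes respond to elevated temperature, how they differ without mut-16, and whether the temperature response depends on the genotype.

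Library totals were 15432009 to 34195602 counts for mRNA and 4760502 to 19060841 for small RNA, and the members held 0.4926% to 0.7657% and 0.0681% to 0.1249% of them. The mutated gene followed its labels: mut-16 mRNA was at 106 to 132 RPM in the 6 wild-type libraries and at 35.2 to 71.7 RPM in the 6 mutant libraries. RPM, reads scaled to library size, is the count divided by the library total in units of 1000000, after scaling by the trimmed mean of M values (TMM). Markers of other tissues moved between the groups. The summed level of 10 sperm genes ranged from 2.05 to 2.19 RPM in wild-type at 20°C, 12.0 to 22.4 in wild-type at 25°C, 64.6 to 88.6 in mut-16 at 20°C and 96.9 to 109 in mut-16 at 25°C, with no sperm gene at 0 throughout. The summed level of 6 oocyte genes was 5650 to 7090 RPM in the other 3 groups and 3460 to 3940 RPM in mut-16 at 25°C, and that of 9 intestinal genes was 30100 to 41300 RPM in the others and 17500 to 29900 RPM there. That sum is carried by the vitellogenin genes vit-2, vit-5 and vit-6, which were lower in the mutant at 25°C, while elt-2, elt-7, act-5 and ifb-2 of the same list were higher (log2 fold changes 0.61, 0.63, 0.63 and 0.83). The part of these shifts in the results below was not tested.

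Most members were scarce in mRNA, and a few were among the abundant transcripts of the adult. In mRNA-seq, 34 of the 277 members had no read in any library, 88 never exceeded 3 counts, and 131 passed the filter on low counts and were tested: 118 C-type lectin genes, 9 lys genes, 4 ilys genes and no pseudogene. In wild-type at 20°C, 11 members exceeded 100 RPM and 38 exceeded 10 RPM, and the 10 highest held 79.8% of the members' reads. Per kilobase of exon, the highest was clec-87 at 1050 ± 17.7 RPM per kilobase (SD, n = 3), followed by lys-4 at 735 ± 188 and ilys-5 at 703 ± 158, whose ranges overlapped. Next on the same scale came clec-63 at 414 ± 96.8, clec-209 at 408 ± 36.3 and clec-88 at 364 ± 6.05, whose ranges overlapped, and then clec-91 at 308 ± 37.4 and clec-50 at 246 ± 51.5. The name clec-209 belongs to a pair of annotated genes with identical reads, of which the files hold 1 row, so its level is that of the sequence and not of 1 locus.

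Elevated temperature raised 43 of the 131 tested members (32.8%) in wild-type and lowered 16 (12.2%), against 22.6% and 9.78% of all 14623 genes tested. In mut-16 it raised 88 members (67.2%) and lowered 13 (9.92%), against 40.2% and 32.3% of all genes. The median log2 fold change of the tested members was 0.57 in wild-type and 0.83 in mut-16, and that of all genes was 0.09 and 0.15. These counts cover the members that passed the filter. Some passed only through the group in which they were high, so the shares are a description. The 2 comparisons use different libraries. Of the 43 members raised in wild-type, 42 were also raised in mut-16, and 45 further members passed the test in mut-16 and not in wild-type, which does not show that their responses differ. Of the 16 that fell in wild-type, 7 also fell in mut-16, 8 were not called, and clec-7 rose.

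Among the lysozymes, the closely spaced lys-1 (V:10277904-10279056) and lys-2 (V:10280307-10281474), which point toward each other, gave the clearest responses. In wild-type, lys-1, known to be induced by Serratia infection, stood at 203, 181 and 223 RPM at 20°C and at 475, 476 and 470 RPM at 25°C. In mut-16 it stood at 330, 339 and 453 RPM at 20°C and at 808, 896 and 898 RPM at 25°C. The 4 groups did not overlap, with wild-type at 20°C lowest and mut-16 at 25°C highest. The log2 fold change with temperature was 1.22 ± 0.213 (SE, adjusted p = 7.7e-07) in wild-type and 1.21 ± 0.212 (adjusted p = 4.4e-07) in mut-16, and the mutant exceeded wild-type by 0.88 ± 0.178 at 20°C and 0.87 ± 0.176 at 25°C.

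The response of lys-2 to temperature was larger. It rose from 56.5, 37.9 and 48.6 RPM to 219, 238 and 227 RPM in wild-type, a log2 fold change of 2.26 ± 0.319 (adjusted p = 1.6e-09). In mut-16 it rose from 69.6, 67.8 and 72.6 RPM to 275, 294 and 295 RPM, a log2 fold change of 2.04 ± 0.296 (adjusted p = 2.9e-09). Again no groups overlapped. The excess in the mutant was small, 0.55 ± 0.145 at 20°C and 0.34 ± 0.123 at 25°C on the log2 scale, and at 25°C the adjusted p of 0.0105 became 0.0949 (log2 fold change 0.24) without wild-type 25°C replicate 1. The third gene beside them, lys-3 (V:10282100-10283544), was rare. Its libraries lay between 0.201 and 0.672 RPM in wild-type at both temperatures and in mut-16 at 20°C. In mutants at 25°C they stood at 2.44, 2.18 and 2.09 RPM, where the gene rose with temperature by 2.19 ± 0.424 on the log2 scale (adjusted p = 3.8e-06).

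Higher levels at 25°C were also found for lys-8 (II:5586178-5587651), which responds to TGF-β signaling, and lys-7 (V:3481432-3482600), a target of the insulin pathway factor DAF-16. For lys-8, levels of 162, 101 and 154 RPM in wild-type at 20°C rose to 228, 237 and 236 RPM at 25°C, and 162, 186 and 225 RPM in mut-16 rose to 255, 270 and 275 RPM. The log2 fold changes were 0.75 ± 0.199 (adjusted p = 0.0015) and 0.48 ± 0.174 (adjusted p = 0.0093), the second with an adjusted p of 0.0531 (log2 fold change 0.36) without mut-16 20°C replicate 1. For lys-7, wild-type at 20°C was widely spread at 42.5, 26.0 and 68.2 RPM, against 86.7, 72.2 and 78.1 RPM at 25°C. That difference was not called (log2 fold change 0.79 ± 0.331, adjusted p = 0.053), although the libraries did not overlap, and without wild-type 20°C replicate 3 it was (1.2, adjusted p = 0.00091). In mut-16, lys-7 rose from 36.1, 40.2 and 54.1 RPM to 108, 111 and 114 RPM, by 1.35 ± 0.397 on the log2 scale (adjusted p = 0.0015).

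**Figure D1:**
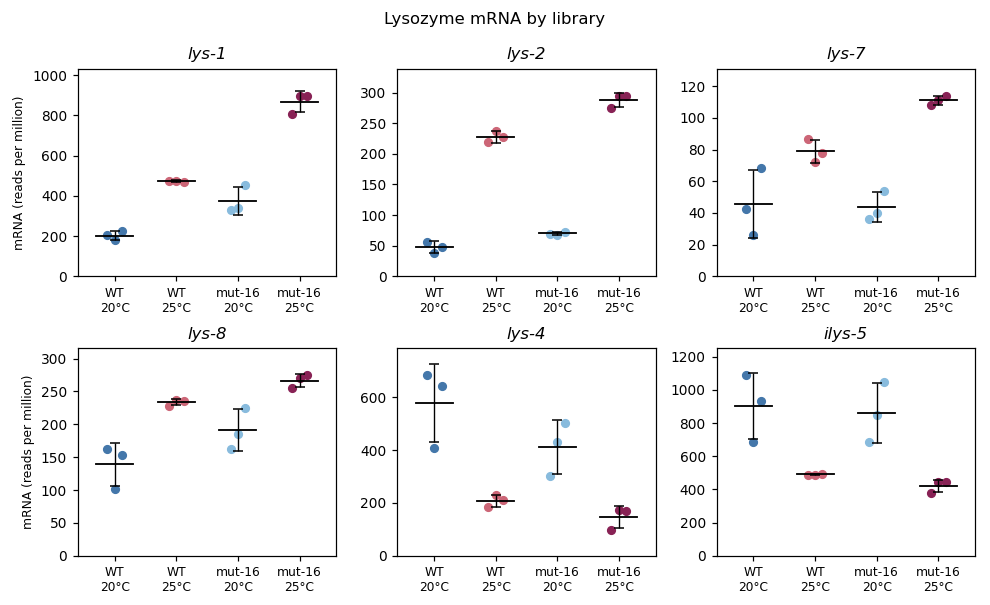
mRNA of 6 lysozyme genes in RPM (y axis, linear from 0) in each of the 4 groups (x axis). Points are libraries, horizontal lines are means and bars are SDs of 3 libraries; lys-1, lys-2, lys-7 and lys-8 are higher at 25°C in both genotypes, and lys-4 and ilys-5 are lower.

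The lysozyme genes with the highest levels per length moved the other way. In wild-type, lys-4 (IV:11621429-11623174) fell from 685, 410 and 643 RPM to 185, 230 and 211 RPM, and in mut-16 from 302, 430 and 503 RPM to 98.9, 172 and 169 RPM. At each genotype the temperatures did not overlap, and the log2 fold changes were −1.47 ± 0.401 (adjusted p = 0.00195) and −1.49 ± 0.403 (adjusted p = 0.00063). The invertebrate-type gene ilys-5 (X:6533490-6536840) fell from 1090, 689 and 931 RPM to 489, 487 and 494 RPM in wild-type, and from 685, 849 and 1050 RPM to 377, 442 and 445 RPM in mut-16. Temperatures did not overlap, and the log2 fold changes were −0.88 ± 0.229 (adjusted p = 0.0011) and −1.03 ± 0.245 (adjusted p = 0.00011). The genotypes were not called different for either gene, at −0.49 ± 0.289 for lys-4 and −0.07 ± 0.164 for ilys-5 at 20°C on the log2 scale. Over the 12 mRNA libraries, the 3 genes outside the families whose log2(RPM + 1) followed ilys-5 most closely were rpl-41.2, a ribosomal protein gene (Pearson r = 0.970), C24B9.3 (0.965) and the metallothionein gene mtl-2 (0.958).

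The remaining lysozymes were low. Beside lys-4, the neighbors lys-5 and lys-6 share 37.5% and 37.0% of their 75-base stretches with another gene, mainly with each other, so their counts are not independent. In wild-type, lys-5 fell from 6.66, 2.65 and 5.11 RPM to 1.72, 2.15 and 1.99 RPM (log2 fold change −1.28 ± 0.434, adjusted p = 0.014), and without wild-type 20°C replicate 1 the adjusted p was 0.0642. In mut-16, lys-6 went from 4.17, 5.10 and 6.82 RPM to 1.62, 3.61 and 3.73 RPM (−0.78 ± 0.334, adjusted p = 0.028), a call lost without mut-16 20°C replicate 3 (−0.47, adjusted p = 0.255) or mut-16 25°C replicate 1 (−0.57, adjusted p = 0.0547). The rare lys-10 was lower in the mutant, with 0.449 to 0.857 RPM in the 6 wild-type libraries and 0.0839 to 0.351 RPM in the 6 mutant libraries, and the groups did not overlap (−1.70 ± 0.541 at 20°C and −1.53 ± 0.462 at 25°C). In mut-16, ilys-2 rose from 0.32, 0.10 and 0.294 RPM to 1.34, 2.18 and 2.32 RPM (3.06 ± 0.757), and ilys-4 rose by 0.67 ± 0.239 on the log2 scale. In wild-type, ilys-2 was also called higher at 25°C. That call was lost with no filter (1.23, adjusted p = 0.0769), with only the groups compared (1.27, adjusted p = 0.073) and in several leave-outs. No ilys gene was called in the interaction. The gene ilys-3, which encodes an enzyme known for killing ingested bacteria, was at 0.504 RPM or less in every library and was not called. No test was made for lys-9 and ilys-1, with at most 1 count in any library, or for ilys-6, with none.

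The starts of 4 responsive genes are printed here because temperature moved 3 of them up and 1 down. Each window runs from 250 bases before to 50 bases after the annotated start, read 5′ to 3′ on the strand of the gene from the WBcel235 genome. Capitals mark TGATAA or its reverse complement TTATCA, a form of the sequence bound by GATA factors such as the intestinal regulator ELT-2. The windows are V:10281425-10281724 (minus strand) for lys-2, IV:3921915-3922214 (plus) for clec-67, X:7139625-7139924 (plus) for clec-86 and IV:11623125-11623424 (minus) for lys-4.
lys-2: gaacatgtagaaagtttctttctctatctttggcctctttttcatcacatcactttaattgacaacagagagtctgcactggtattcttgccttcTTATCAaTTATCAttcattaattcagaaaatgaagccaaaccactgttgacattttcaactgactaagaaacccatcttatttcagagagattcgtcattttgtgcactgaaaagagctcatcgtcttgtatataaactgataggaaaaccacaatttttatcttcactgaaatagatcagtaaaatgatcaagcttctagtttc
clec-67: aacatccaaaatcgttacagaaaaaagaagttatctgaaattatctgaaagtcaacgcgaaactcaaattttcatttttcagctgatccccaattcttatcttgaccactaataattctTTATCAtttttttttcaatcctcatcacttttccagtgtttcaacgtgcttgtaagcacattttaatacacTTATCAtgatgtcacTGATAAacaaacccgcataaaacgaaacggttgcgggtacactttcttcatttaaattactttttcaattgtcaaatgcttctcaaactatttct
clec-86: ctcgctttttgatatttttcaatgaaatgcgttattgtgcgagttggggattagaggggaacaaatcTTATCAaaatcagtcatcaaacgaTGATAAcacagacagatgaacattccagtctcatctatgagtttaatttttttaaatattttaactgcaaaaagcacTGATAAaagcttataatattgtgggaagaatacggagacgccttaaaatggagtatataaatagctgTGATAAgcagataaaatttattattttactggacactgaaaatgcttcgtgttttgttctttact
lys-4: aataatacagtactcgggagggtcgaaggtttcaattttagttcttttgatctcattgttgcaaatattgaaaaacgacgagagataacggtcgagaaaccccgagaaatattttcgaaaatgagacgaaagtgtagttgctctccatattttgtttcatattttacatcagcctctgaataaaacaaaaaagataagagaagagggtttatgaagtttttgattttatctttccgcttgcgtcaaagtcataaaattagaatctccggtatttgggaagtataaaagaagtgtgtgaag

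The motif, searched on both strands with no allowance for mismatches, occurs 2 times in the lys-2 window, 3 times in that of clec-67, 4 times in that of clec-86 and 0 times in that of lys-4. Over 253 windows of protein-coding members, 53.8% held at least 1 copy, against 30.2% of the 19973 windows of all protein-coding genes. Of the 38 members above 10 RPM in wild-type at 20°C, 71.1% did. None was found in the windows of clec-87, clec-88, clec-91 and ilys-5, and 4 copies were found in that of lys-8. The 6 largest called changes per direction in wild-type were also looked at, at 5 RPM or more without overlap between temperatures. Those that rose held 3 copies (clec-52, clec-67), 2 (lys-1, lys-2), 1 (clec-41) and 0 (clec-85). Those that fell held 3 (clec-218), 2 (clec-150), 1 (clec-10, clec-80, clec-97) and 0 (lys-4). Whether the motif goes with the direction of change was not tested. Other forms that hold GATA were not searched, and AGATAA, such a form, occurs in the lys-4 window. A match is a description of these letters and not of binding.

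Among C-type lectin genes at 5 RPM or more, clec-67 had the largest called rise with temperature in wild-type. In wild-type, clec-67 (IV:3922165-3925039), a target of the PMK-1 MAP kinase pathway, rose from 4.50, 3.31 and 4.80 RPM to 16.2, 20.6 and 18.4 RPM, and in mut-16 from 4.92, 4.95 and 5.82 RPM to 18.0, 20.1 and 19.7 RPM. The log2 fold changes were 2.13 ± 0.326 (adjusted p = 2.3e-08) and 1.88 ± 0.297 (adjusted p = 3.9e-08), and the genotypes were not called different at either temperature. In the same run of lectin genes, clec-71 (IV:3937458-3939979) rose from 0.957, 0.897 and 1.45 RPM to 3.50, 4.58 and 4.62 RPM in wild-type. In mut-16 it rose from 2.04, 2.01 and 2.26 RPM to 11.4, 12.5 and 11.7 RPM. Here all 4 groups were apart, and the mutant exceeded wild-type by 0.90 ± 0.263 at 20°C and 1.48 ± 0.260 at 25°C on the log2 scale.

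Among genes named in work on infection, 16 of a list of 19 C-type lectin genes were tested. With temperature, 9 rose and 1 fell in wild-type (median log2 fold change 0.96), and 14 rose and none fell in mut-16 (median 1.26). The shares that rose were 56.2% and 87.5%, beside 22.6% and 40.2% of all genes. All genes fell in 9.78% and 32.3% of cases, and the list in 6.25% in wild-type and none in mut-16. In mut-16 against wild-type the list was mixed. At 20°C, 4 were higher (25.0%) and 5 lower (31.2%), against 25.9% and 11.2% of all genes. At 25°C, 6 were higher (37.5%) and 2 lower (12.5%), against 41.1% and 32.6%. For clec-41 (V:13134903-13138101), levels of 81.0, 65.2 and 90.9 RPM rose to 167, 172 and 178 RPM in wild-type, a log2 fold change of 1.12 ± 0.270. In mut-16 they rose from 126, 123 and 130 RPM to 296, 175 and 173 RPM, with replicate 1 well above the others (0.76 ± 0.230). Levels of clec-85 (IV:2850886-2855456) rose from 51.8, 40.3 and 41.1 RPM to 105, 115 and 118 RPM in wild-type and from 37.5, 36.7 and 58.5 RPM to 83.5, 68.3 and 70.5 RPM in mut-16, and 23.8% of its 75-base stretches also occur in the neighbor Y54G2A.40. The 3 untested genes of the list, clec-39, clec-42 and clec-61, had too few counts.

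Among the abundant C-type lectin genes, clec-209 rose with temperature, from 386, 327 and 379 RPM to 696, 749 and 724 RPM in wild-type (log2 fold change 0.99 ± 0.193) and by 0.65 ± 0.159 in mut-16. Others fell: clec-150 (III:1002707-1006298) went from 285, 272 and 264 RPM to 130, 134 and 126 RPM in wild-type and from 204, 225 and 311 RPM to 129, 123 and 125 RPM in mut-16. Both falls of clec-150 passed the test, with log2 fold changes of −1.08 ± 0.203 and −0.98 ± 0.193. The largest fall in mut-16 among members at 5 RPM or more was that of clec-97 (I:11152704-11154330), from 29.5, 31.7 and 46.2 RPM to 9.43, 11.5 and 11.9 RPM, a log2 fold change of −1.70 ± 0.302 (adjusted p = 6.7e-07), and in wild-type it fell by 1.21 on the same scale. No comparison called clec-50, which ranged from 198 to 405 RPM.

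**Figure D2:**
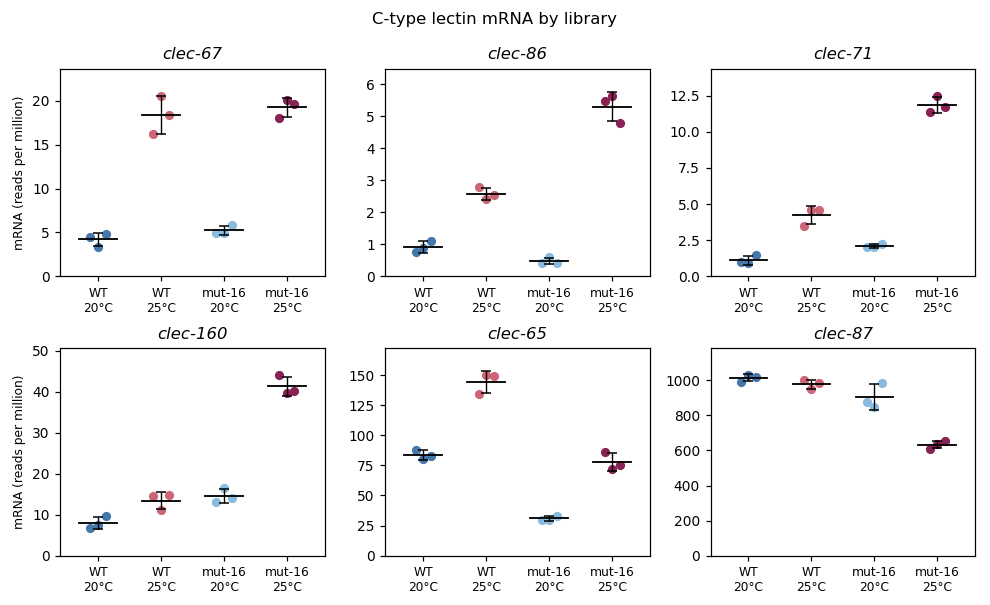
mRNA of 6 C-type lectin genes in RPM (y axis, linear from 0) in each of the 4 groups (x axis). Points are libraries, horizontal lines are means and bars are SDs of 3 libraries; clec-67 is high at 25°C in both genotypes, clec-86, clec-71 and clec-160 are highest in mut-16 at 25°C, clec-65 is lowest in mut-16 at 20°C, and clec-87 is lowest in mut-16 at 25°C.

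Without mut-16, 31 members (23.7%) were higher and 18 (13.7%) lower at 20°C, close to the 25.9% and 11.2% of all genes. The balance turned without mut-16 20°C replicate 3 (23 higher and 26 lower), with only the compared groups (16 and 18) and under a minimum of 10 counts per library (13 and 15), and was even without wild-type 20°C replicate 2 (23 and 23). At 25°C, 74 (56.5%) were higher and 15 (11.5%) lower, against 41.1% and 32.6% of all genes. The median log2 fold changes were 0.13 and 0.65, and those of all genes 0.11 and 0.16. These 2 comparisons use different libraries: 26 members were higher at both temperatures, 9 were lower at both, and 3 were lower at 20°C and higher at 25°C. In mut-16, clec-160 (III:8272956-8275971) was at 13.1, 16.6 and 14.0 RPM at 20°C and 44.1, 39.8 and 40.1 RPM at 25°C, against 6.85, 7.46 and 9.71 RPM and 14.5, 11.2 and 14.7 RPM in wild-type. The excess was 0.86 ± 0.202 at 20°C and 1.62 ± 0.270 (adjusted p = 8.2e-08) at 25°C on the log2 scale. For clec-170 (IV:1266866-1274425) the mutant had 7.41 to 8.43 RPM at 20°C and 10.7 to 13.1 RPM at 25°C, and wild-type had 2.97 to 4.71 RPM at either temperature, so the genotypes did not overlap.

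The clearest loss in the mutant was in clec-65 (II:12901325-12903336), one of 5 neighboring lectin genes. It was at 88.1, 79.9 and 82.4 RPM in wild-type and 30.0, 29.8 and 32.9 RPM in mut-16 at 20°C, a log2 fold change of −1.43 ± 0.218 (adjusted p = 4.4e-09). At 25°C it was at 134, 150 and 149 RPM and 86.2, 71.6 and 75.0 RPM, a log2 fold change of −0.90 ± 0.161. Its neighbor clec-66 was also called lower in the mutant at 20°C (−0.47 ± 0.155), but not without mut-16 20°C replicate 2 (−0.38, adjusted p = 0.0554). The other way went clec-63, at 585, 394 and 631 RPM in wild-type and 726, 780 and 1060 RPM in mut-16 at 20°C. That rise of clec-63 (0.67 ± 0.211, adjusted p = 0.0065) was lost without mut-16 20°C replicate 3 (0.40, adjusted p = 0.109). Also lower in mut-16 at both temperatures were clec-8, clec-53, clec-54 and clec-205, by −0.84 to −1.26 at 20°C on the log2 scale.

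At 25°C the abundant clec-87 (I:10184462-10185520) was lower in the mutant, with 1000, 951 and 983 RPM in wild-type and 611, 637 and 654 RPM in mut-16 (log2 fold change −0.63 ± 0.121, adjusted p = 3.0e-06). At 20°C it was at 993, 1030 and 1020 RPM and at 877, 846 and 986 RPM, a difference that was not called. The same order was found for clec-91 (I:9126140-9127101), at 216, 225 and 232 RPM and at 146, 141 and 143 RPM at 25°C, and for clec-88 (II:6365722-6367002), at 374, 372 and 374 RPM and at 261, 257 and 263 RPM. Neither pair of groups overlapped. The 6 oocyte markers were all called lower in the same comparison, with a median log2 fold change of −0.77, and the part of that shift in the lectin values was not tested.

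The response to temperature itself differed between the genotypes for 28 members. It was more positive in mut-16 for 22 (16.8%) and more negative for 6 (4.58%), against 9.7% and 21.4% of all genes. The split depends on the processing: it was 22 against 2 with DESeq2 and 38 against 0 with total counts as scaling. All genes gave 1418 against 3129 in the main fit, 1523 against 2749 with DESeq2 and 3155 against 888 with total counts. With total counts, the median log2 value of all genes moved from −0.10 to 0.19. Under a minimum of 10 counts per library, the split was 26 against 0 for members and 2242 against 1055 for all genes. Among members at 5 RPM or more in 1 group, the largest difference was that of clec-86 (X:7139875-7140566). It rose from 0.755, 0.897 and 1.11 RPM to 2.78, 2.41 and 2.54 RPM in wild-type, and from 0.427, 0.602 and 0.419 RPM to 5.47, 5.65 and 4.80 RPM in mut-16. The heat response was thus 1.46 ± 0.303 in wild-type and 3.45 ± 0.510 in mut-16 on the log2 scale, a difference of 1.99 ± 0.446 (adjusted p = 0.00053), and the mutant was the lower genotype at 20°C and the higher at 25°C. The lower level at 20°C (−0.95 ± 0.320) was not called without wild-type 20°C replicate 3 (−0.77, adjusted p = 0.0884).

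Other members fell with temperature more in wild-type than in mut-16. In wild-type, clec-218 (V:8307942-8310766) fell from 17.6, 26.1 and 21.9 RPM to 9.84, 9.98 and 9.62 RPM, while mut-16 had 16.8, 12.4 and 12.0 RPM at 20°C and 13.3, 15.7 and 14.1 RPM at 25°C. The interaction was 1.23 ± 0.291 (adjusted p = 0.00092). A similar pattern was seen for clec-10 (II:402678-404180), with 22.3, 24.2 and 30.6 RPM against 8.16, 9.70 and 9.58 RPM in wild-type and 12.5, 15.5 and 16.7 RPM against 10.9, 11.2 and 12.7 RPM in mut-16 (interaction 1.13 ± 0.268, adjusted p = 0.00095). For clec-7 the fall in wild-type (−0.72 ± 0.271, adjusted p = 0.028) rested on wild-type 20°C replicate 3, at 7.74 RPM beside 4.13 and 3.53 RPM, without which it was −0.28 (adjusted p = 0.243).

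**Figure D3:**
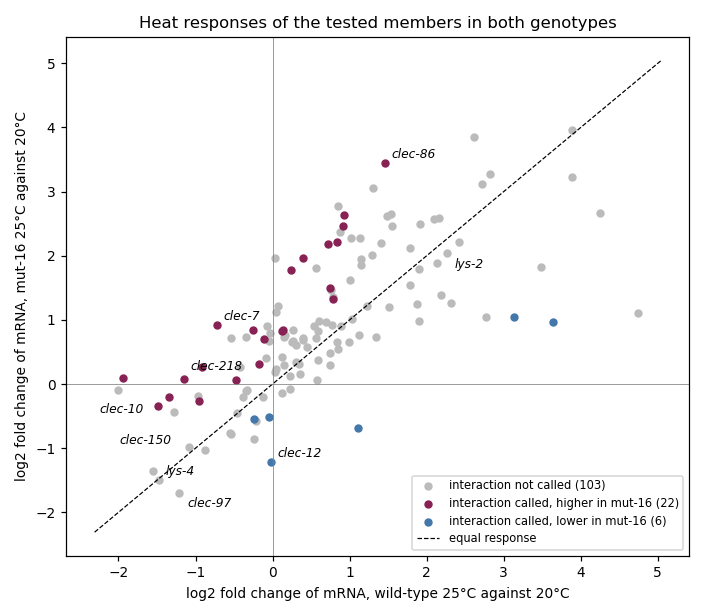
Each point is 1 of the 131 tested members, placed by its log2 fold change of mRNA with temperature in wild-type (x axis) and in mut-16 (y axis), and the dashed line marks equal responses. The 22 members with a more positive response in mut-16 lie above the line, the 6 with a more negative one below it, and most points sit at the upper right, where both responses are positive.

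A group of rare members was almost silent in wild-type at 20°C. This group was chosen after its values were seen, and it is described with no test: 15 members averaged under 0.5 RPM in wild-type at 20°C and were called higher in mut-16 at both temperatures. Mean levels of clec-73 were 0.237, 0.912, 2.51 and 4.94 RPM in wild-type at 20°C, wild-type at 25°C, mut-16 at 20°C and mut-16 at 25°C. Those of clec-79, in the same run of lectin genes on chromosome IV, were 0.0827, 0.582, 2.29 and 4.62 RPM. Those of clec-123 were 0.0478, 0.469, 2.01 and 4.10 RPM. Of clec-153 no read was found in wild-type at 20°C, and its mean of 0.768 RPM in mut-16 at 20°C was at least 5.15-fold higher than the 0.149 RPM that 3 counts per library would give. For these 4 genes the order of the groups was that of the sperm markers, of which 9 of 9 tested were higher in mut-16 at both temperatures. A higher level in mut-16 was the rule by which the 15 members were chosen, so sharing it with the sperm markers is no result. With temperature in wild-type, 13 of the 15 members and 9 of the 9 sperm markers were called higher, beside 22.6% of all genes. In mut-16, 15 of the 15 members and 4 of the 9 sperm markers were, beside 40.2% of all genes. A low level in wild-type at 20°C and a higher call in mut-16 at 25°C were part of the choice. Both favor a rise with temperature, so these counts are a description and no result. Among the 15, only the means of clec-17, clec-174 and clec-184 had another order. Theirs were higher in wild-type at 25°C (0.787, 0.452 and 0.453 RPM) than in mut-16 at 20°C (0.283, 0.316 and 0.328 RPM). In some of the others, such as clec-99 and clec-137, the libraries of these 2 groups overlapped. Some cuticle collagen genes listed as hypodermal markers had the sperm order too, with means of 0.414, 1.47, 7.31 and 12.2 RPM for dpy-13. Of the 5 hypodermal markers, 4 were called higher and 0 lower in mut-16 at 20°C, and 4 higher and 1 lower at 25°C. Of 10 markers of male neurons and male somatic gonad, 1 was at 0 throughout and 3 could be tested. None of the 3 was called between the genotypes at 20°C, and try-5 was higher in mut-16 at 25°C (log2 fold change 1.46, adjusted p = 0.0183). With temperature in mut-16, klp-6 was called higher and plg-1 lower. The part of these markers' tissues in the lectin reads was not tested.

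Position gave a similar picture within some groups and not within others. From clec-67 to clec-79 on chromosome IV (IV:3922165-3975721), 10 of 13 members were tested, 8 were higher in mut-16 at 25°C, 5 were higher at 20°C, and none was lower, where 41.1% and 25.9% of all genes were higher. From clec-40 to clec-33 on chromosome V (V:16839121-16869840), all 7 tested of 15 members rose with temperature in mut-16 and 4 did in wild-type, beside 40.2% and 22.6% of all genes. All 4 genes of the group from clec-136 to clec-139 (II:4615574-4621750) rose with temperature in both genotypes, beside the same shares of all genes. As above, some members passed the filter only through a group in which they were high, so these counts are a description. Mean levels of clec-137, for example, were 0.0453 RPM in wild-type at 20°C and 1.68 RPM in mut-16 at 25°C. Other groups were mixed: of 5 tested genes from clec-62 to clec-66 (II:12893062-12906644), 2 were higher and 2 lower in mut-16 at 20°C, and of 5 in the group led by clec-57 (V:14469231-14482317), none was higher and 2 were lower. In the group led by clec-93 (I:11142110-11158833), 3 of 4 tested genes were higher and 1 lower in mut-16 at 25°C. No mRNA test was possible in 4 of the 15 groups, led by clec-127, clec-228, clec-38 and clec-250.

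Other secreted immune effectors, a list of 72 genes outside the families, gave 47 tested genes. Of these, 15 rose and 10 fell with temperature in wild-type, and 23 rose and 6 fell in mut-16, where all genes gave 22.6% and 9.78% in wild-type and 40.2% and 32.3% in mut-16. The families differed: of 19 spp genes, which encode saposin-like proteins, 2 rose and 7 fell in wild-type, while of 7 nlp genes 4 rose and of 4 abf genes 2 rose, with none falling in either. In mut-16 against wild-type, 14 were higher and 10 lower at 20°C, and 24 were higher and 4 lower at 25°C, beside 25.9% and 11.2% and 41.1% and 32.6% of all genes. All 17 listed regulators of immunity were tested. With temperature, 4 rose in wild-type, and 8 rose and 4 fell in mut-16, shares near those of all genes. The kinase gene pmk-1 stayed at mean levels of 21.1, 22, 21.1 and 24.1 RPM and was not called in any comparison. The mean level of elt-2, the intestinal GATA factor gene, was 11.7 RPM in wild-type at 20°C and 16.9 RPM in mut-16 at 25°C, and the mutant exceeded wild-type at 25°C (log2 fold change 0.61).

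Small RNAs matching the members were mostly lower without mut-16. All 277 members had at least 1 small RNA read, 26 never exceeded 3 counts, and 117 were tested: 102 protein-coding lectin genes, 11 lectin pseudogenes, 3 lys genes and 1 ilys gene. The counts are of all reads of 18 to 30 nucleotides assigned to the transcripts of a gene and were not split by strand, length or first base, so they are not counts of 22G-siRNAs alone. At 20°C, 72 members (61.5%) were lower and 17 (14.5%) higher in mut-16, against 46.8% and 33.6% of all 16025 genes tested. At 25°C, 73 (62.4%) were lower and 12 (10.3%) higher, against 47.1% and 31.3%. The median log2 fold change of the members was −2.05 at 20°C and −2.18 at 25°C, and that of all genes was −0.45 and −0.58. Some members passed the filter only through wild-type libraries, so these shares are a description. Requiring 10 counts in every library, which itself removes members with few reads in mut-16, left 16 members. Of these, 5 were higher and 7 lower at 20°C (median −0.27), and 3 higher and 4 lower at 25°C (median −0.54). At both temperatures, from separate libraries, 61 members were lower and 11 were higher.

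The largest loss at 20°C was at clec-238 (V:16951804-16953629). In wild-type it had 125, 134 and 125 RPM of small RNA at 20°C and 83.7, 78.0 and 56.8 RPM at 25°C, and in mut-16 no library exceeded 0.845 RPM. The log2 fold changes were −8.20 ± 1.31 (adjusted p = 2.7e-09) and −7.32 ± 1.23 (adjusted p = 1.8e-08), with the mutant level set by few reads. Of the 22-base stretches of clec-238, 29.7% occur in another gene as well, so the reads are not all its own. Its mRNA was low throughout, at 1.16, 0.632 and 0.684 RPM in wild-type at 20°C and at 0.407 RPM or less elsewhere.

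At clec-12 (I:12476653-12478594), small RNA was at 44.8, 51.0 and 52.5 RPM at 20°C and at 112, 118 and 89.9 RPM at 25°C in wild-type. In mut-16 the 6 libraries lay between 1.72 and 2.66 RPM, far below every wild-type library. The log2 fold changes were −4.69 ± 0.609 (adjusted p = 6.1e-13) at 20°C and −5.54 ± 0.697 (adjusted p = 1.1e-13) at 25°C. The mRNA of clec-12 was also lower in mut-16 at 25°C, at 1.11, 0.791 and 0.357 RPM against 1.78, 2.30 and 2.61 RPM. Losses of the same kind were found at clec-68, from 12.9 to 19 RPM in wild-type at 20°C to 0.304 RPM or less, and at clec-31, clec-41, clec-169 and clec-170.

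**Figure D4:**
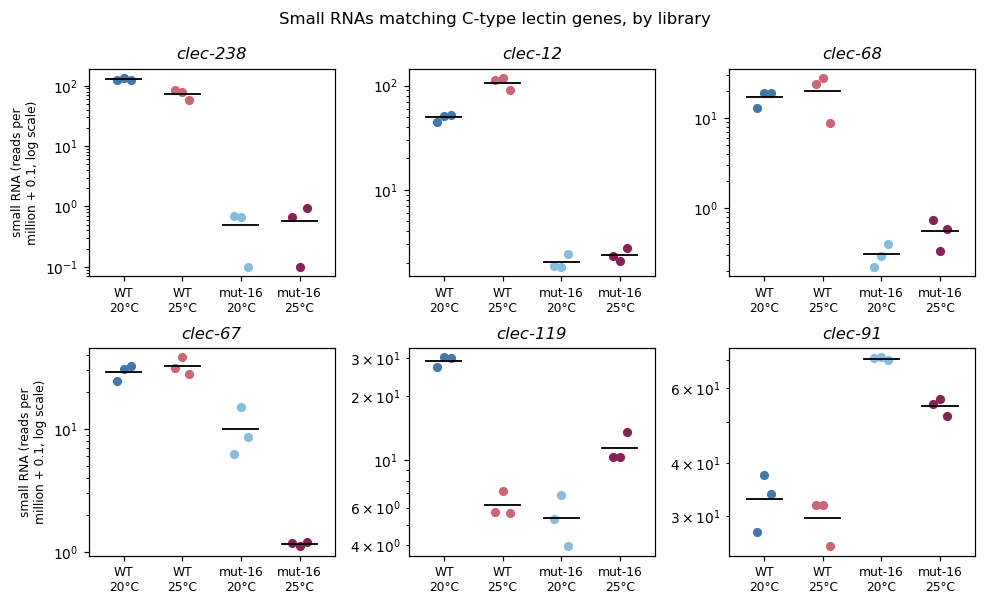
Small RNA of 6 C-type lectin genes in RPM plus 0.1 (y axis, log scale) in each of the 4 groups (x axis). Points are libraries and horizontal lines are means; clec-238, clec-12 and clec-68 are low in both mut-16 groups, clec-67 falls further in mut-16 at 25°C, clec-119 is highest in wild-type at 20°C, and clec-91 is higher in mut-16.

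A few abundant lectin genes had more small RNA in the mutant, while others of similar mRNA level, clec-209 and clec-150, had less at 20°C (log2 fold changes −4.40 and −2.45). At clec-87, small RNA was at 105, 117 and 102 RPM in wild-type and at 208, 195 and 209 RPM in the mutant at 20°C, a log2 fold change of 0.91 ± 0.258. At 25°C the rise at clec-87 (0.56 ± 0.217) was not called with only the compared groups in the fit (0.49, adjusted p = 0.0614). At clec-91 it was at 27.5, 37.3 and 33.7 RPM and at 70.4, 70.7 and 69.6 RPM, a log2 fold change of 1.10 ± 0.201 (adjusted p = 1.8e-07), and at 25°C of 0.86 ± 0.178. Smaller increases in the mutant were called at clec-88 and clec-90 at both temperatures. With at least 10 counts required in every library, those of clec-88 at 20°C (0.09, adjusted p = 0.291) and of clec-90 at 25°C (0.01, adjusted p = 0.934) were lost, and that of clec-90 also with only the compared groups (0.25, adjusted p = 0.0546). The small RNAs of the 6 oocyte marker genes were all higher in mut-16 as well, with median log2 fold changes of 1.16 and 1.02. The member with the most small RNA in wild-type, clec-144, ranged from 80.2 to 369 RPM with overlapping groups and was not called in any comparison. Since 32.9% of the 22-base stretches of clec-144 occur in another gene as well, its reads may not all be its own.

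Lysozyme genes had little small RNA. At lys-8 it rose from 0.851, 0.501 and 0.585 RPM in wild-type to 5.86, 8.15 and 3.75 RPM in mut-16 at 20°C (log2 fold change 3.19 ± 0.675, adjusted p = 5.7e-06), and at 25°C from 2.5, 1.66 and 0.794 RPM to 10.2, 5.62 and 6.76 RPM. The genotypes did not overlap. At lys-2 it was lower in mut-16, at 0.779 to 1.04 RPM against 0.149 to 0.609 RPM at 20°C and at 1.17 to 1.79 RPM against 0.234 RPM or less at 25°C. The call at 20°C was lost with DESeq2 (−1.28, adjusted p = 0.0666) and without mut-16 20°C replicate 1 (−1.16, adjusted p = 0.0914) or 2 (−1.19, adjusted p = 0.0677). At lys-4 it was highest in wild-type at 20°C, at 1.84, 1.56 and 1.56 RPM, and at 0.622 RPM or less in the other groups. The small RNA of ilys-5 was at 1.42 RPM or less and called lower in mut-16 at both temperatures, calls that the DESeq2 test did not make (adjusted p = 0.116 and 0.105).

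With temperature, small RNA rose at 17 members (14.5%) and fell at 15 (12.8%) in wild-type, against 20.2% and 17% of all genes. In mut-16 it rose at 4 (3.42%) and fell at 16 (13.7%), against 8.29% and 17.3%. In wild-type, clec-125 (II:3516003-3518898) rose from 4.55, 4.81 and 4.23 RPM to 28, 23.7 and 24.2 RPM, and in mut-16 it stayed at 0.776 RPM or less. By contrast, clec-143 (II:10468202-10470297) fell from 14.5, 15.2 and 16.6 RPM to 0.836, 1.75 and 1.00 RPM in wild-type. At clec-193 wild-type had 7.46, 10.4 and 8.76 RPM at 25°C and mut-16 had no read in any library, at least 24.1-fold lower than wild-type at a floor of 3 counts per library. That gene shares 43.7% of its 22-base stretches with another.

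The response of small RNA to temperature differed between the genotypes at 13 members, more positive in mut-16 at 5 (4.27%) and more negative at 8 (6.84%), against 5.7% and 12.6% of all genes. The 8 became 4, beside 5, without wild-type 20°C replicate 1 or 3 or wild-type 25°C replicate 1 or 2. At clec-119 (II:1255937-1258375), it fell from 27.2, 30.1 and 30.0 RPM to 5.63, 7.08 and 5.56 RPM in wild-type and rose from 5.21, 6.77 and 3.86 RPM to 10.2, 10.3 and 13.4 RPM in mut-16, an interaction of 3.34 ± 0.572 (adjusted p = 2.0e-06). At clec-67, it stayed between 24.4 and 37.8 RPM in the 6 wild-type libraries, and in mut-16 it was at 6.14, 14.8 and 8.52 RPM at 20°C and 1.08, 1.02 and 1.12 RPM at 25°C. The interaction was −3.33 ± 0.721 (adjusted p = 0.00021). Since 22.9% of the 22-base stretches of clec-67 occur in another gene as well, these reads may not all be its own. For the mRNA of clec-67, given above, no difference between the genotypes was called at either temperature.

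Set side by side, 70 members were tested in both assays, 61 in mRNA alone, 47 in small RNA alone and 99 in neither. At 20°C, 44 of the 72 members with less small RNA in mut-16 were tested in mRNA: 10 were higher, 7 lower and 27 not called, with a median log2 fold change of 0.08, the same as that of all 70. At 25°C, 45 of the 73 were tested: 26 were higher, 4 lower and 15 not called, with a median of 0.38, beside 0.36 for all 70. Of the 12 with more small RNA in mut-16 at 25°C, 10 were tested in mRNA, of which 5 were higher and 4 lower in mRNA, the lower ones among them clec-87 and clec-91. Lectin pseudogenes, untested in mRNA, had less small RNA in mut-16 at 6 of 11 and more at 3 of 11 at 20°C, and at 25°C less at 6 and more at 2, beside 46.8% and 33.6% of all genes at 20°C and 47.1% and 31.3% at 25°C.

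**Figure D5:**
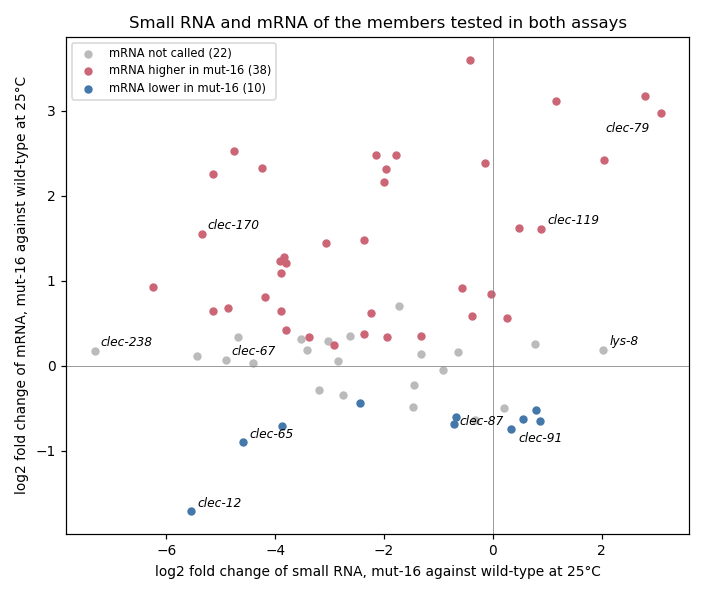
Each point is 1 of the 70 members tested in both assays, placed by its log2 fold change in mut-16 against wild-type at 25°C of small RNA (x axis) and of mRNA (y axis), and colored by the mRNA call. Most points lie left of 0, and on that side the mRNA values lie on both sides of 0, with 38 of the 70 members called higher in mRNA and 10 lower.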

How the data were processed

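RNA of whole adults was sequenced as poly(A)-selected mRNA and as small RNA of 18 to 30 nucleotides. The authors trimmed reads with Cutadapt and estimated reads per transcript with Salmon on the WS258 transcriptome, so the deposited values are expected counts per gene, without normalization. Program versions are not given in the sources used here. Counts were rounded, genes passing filterByExpr were kept (14623 and 16025), and the 12 libraries of each assay were fitted together by the robust quasi-likelihood method of edgeR 4.0.16 (R 4.3.3) with TMM scaling. All adjusted p-values are Benjamini-Hochberg values over all genes of that fit, called under 0.05, and measure the spread between biological replicates. A standard error is the log2 fold change divided by the normal deviate of its p-value.

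Members were matched by sequence name, and the members and gene lists were chosen with earlier results of these data known. Genes are named if they are lysozymes, belong to a list of 19 lectin genes from work on infection, are among the 8 highest per length in wild-type at 20°C, or are among the 6 largest called changes per direction and comparison without overlap between groups (at least 5 RPM in mRNA, 10 RPM in small RNA), with others named as chosen after their values were seen. The test was checked on simulated data. Alternatives were DESeq2 1.42.0, total counts as scaling, other filters, the replicate number as a block, only the groups compared, the unexplained letters RE of the library titles as a covariate, a fold threshold, and leaving out each library. Among the mRNA titles, only those of wild-type 20°C replicate 3 and mut-16 20°C replicate 3 lack the letters RE. Leaving out either of these libraries changed some of the calls given above. Chromatin data were not analysed here.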

Additional observations from a re-analysis of the deposited data

Results flagged for a closer look

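The temperature response of mRNA differed between the genotypes (a test of the difference itself, edgeR adjusted p under 0.05) for 15 of the named members. It was more positive in mut-16 for clec-238 (difference of log2 fold changes 2.03), clec-86 (1.99), clec-7 (1.64), clec-4 (1.57), lys-3 (1.47), clec-218 (1.23), clec-258 (1.17), clec-10 (1.13), clec-160 (0.76), clec-8 (0.70), clec-80 (0.70) and clec-65 (0.53), and more negative for clec-12 (−1.18), clec-87 (−0.46) and clec-88 (−0.30). The value of lys-3 lost its call without wild-type 20°C replicate 2 (1.34, adjusted p = 0.0577) or replicate 3 (1.23, adjusted p = 0.104), or without wild-type 25°C replicate 2 (1.30, adjusted p = 0.0606). That of clec-87 lost it without mut-16 20°C replicate 3 (−0.26, adjusted p = 0.0591), with total counts as scaling (−0.16, adjusted p = 0.25) and under a minimum of 10 counts per library (−0.25, adjusted p = 0.0991), and that of clec-88 without the same library (−0.10, adjusted p = 0.462) and in 4 other leave-outs with values from −0.28 to −0.31.

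In small RNA, the temperature response was more positive in mut-16 at clec-119 (3.34) and lys-4 (2.79), and more negative at clec-67 (−3.33), clec-234 (−2.14), clec-125 (−1.89), clec-156 (−1.68) and clec-12 (−0.85). At clec-156 it fell from 14.5, 17.5 and 17.2 RPM to 5.36, 5.52 and 6.36 RPM in wild-type and from 26.9, 51.3 and 24.2 RPM to 3.88, 3.75 and 3.40 RPM in mut-16. At clec-12, leaving out 1 library gave values of −0.63 to −0.84 among the calls that were lost, at clec-125 of −1.51 to −1.74, and at clec-234 of −1.68 to −2.20. DESeq2 gave no adjusted p for lys-4. No outlier test was made, since each group had 3 libraries.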

How the results depend on the processing

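Requiring 10 counts in every library left 70 members in mRNA and 16 in small RNA, and counts fell accordingly. In mRNA, members higher with temperature were 19 in wild-type and 44 in mut-16, members higher in mut-16 were 13 at 20°C and 34 at 25°C, and the interaction called 0 lower. In small RNA the counts became 1 higher and 3 lower with temperature in wild-type, 4 lower in mut-16, 5 higher and 7 lower in the genotype comparison at 20°C, 3 higher and 4 lower in that at 25°C, and 2 higher and 4 lower in the interaction. Fitting only the groups compared gave 26 mRNA members higher with temperature in wild-type, 16 higher in mut-16 at 20°C, and 7 higher with temperature in mut-16 small RNA. A log2 fold change of at least 1 left, in mRNA, 9 lower in wild-type and 53 higher and 5 lower in mut-16 with temperature, 18 higher and 7 lower in the 20°C genotype comparison, 2 lower in that at 25°C, and 14 higher in the interaction, and in small RNA 1 higher with temperature in mut-16 and 7 higher in mut-16 at 25°C.

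The 6 mRNA members with a negative interaction became 2 with DESeq2, 0 with total counts, 3 with no filter, 10 with the RE covariate and 2 to 8 without 1 library, namely 2 without wild-type 25°C replicate 2 or mut-16 25°C replicate 3 and 3 without wild-type 20°C replicate 2 or 3, mut-16 20°C replicate 3, wild-type 25°C replicate 3 or mut-16 25°C replicate 2; the 22 positive ones became 38 with total counts. Total counts also moved the median of all genes in the temperature response of mut-16 from 0.15 to 0.46. The 4 members with more small RNA at 25°C in mut-16 became 2 with DESeq2, 2 with total counts, 2 with the replicate block and 1 to 7 without 1 library, and the small RNA interaction counts ranged from 2 to 6 and from 4 to 12. All other leave-out counts stayed within 1.5 times. The block otherwise changed no count by that factor (44 and 16 in wild-type mRNA with temperature); same-numbered libraries did not correlate throughout (0.189, 0.0193 and 0.119 for temperature in mut-16 mRNA), so the numbers are not taken as pairs. With the block, lys-7 in wild-type was called (0.85, adjusted p = 0.0119).

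Of 107 named mRNA values, 86 kept direction and call under every alternative, and of 70 small RNA values, 56 did. Reversals were those of lys-7 in mut-16 at 20°C (−0.37 to 0.34 without 1 library, positive at 0.34 without wild-type 20°C replicate 3 and at 0.05 without mut-16 20°C replicate 1) and of the clec-88 interaction with total counts (0.00). Where no cause is named, the cause was not tested. Depth limits the rare members: 3 counts correspond to 0.149 RPM on average in wild-type at 20°C.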
